A study of Rattus norvegicus with 6 samples.

Results

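Long noncoding RNA loci of the rat corneal epithelium were examined in 6 RNA libraries of Brown Norway rats. A locus belonged to this class when the deposited annotation gave it the transcript type lincRNA, processed_transcript, antisense or sense_intronic and at least 1 library held at least 1 count. Of 61453 loci in the files, 3192 carried 1 of these types, and 1065 of them had a count. They comprised 943 lincRNA loci (transcribed between genes), 67 processed_transcript loci (spliced transcripts without an annotated reading frame), 42 antisense loci and 13 sense_intronic loci. A further 245 loci whose type joined a long noncoding type with protein_coding were not members. Diabetes was compared with the normal state for the 289 members whose mean FPKM reached 0.5, and the other 776 are described by their abundance only. FPKM is the abundance in fragments, scaled to the length of the locus and to the depth of the library.

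The diabetic group comprised 3 libraries of male rats given a single intraperitoneal injection of streptozotocin (STZ), a toxin of the pancreatic beta cell, at 50 mg/kg, with blood glucose above 16.67 mmol/l. The normal group comprised 3 libraries of male rats of the same strain injected with citrate buffer. The epithelium was scraped from the excised cornea 16 weeks after the injection in both groups. The study's methods name as many rats as there are libraries, but the labels do not state that each library came from a separate rat. Libraries of a group differed by more than counting noise, with a chi-square of 57.5 to 109 per locus between replicates, and p-values measure the spread between these libraries.

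Library totals were 62288901 to 87040253 counts in the diabetic group and 76500184 to 81139312 counts in the normal group. Of 8 listed corneal epithelial markers 5 were found, Krt12 and Aldh3a1 among them, and their summed FPKM was 13655 to 15304 in the diabetic group and 13245 to 13997 in the normal group. Symbols were matched exactly, so a marker named only on a locus that joins several symbols, such as Krt14;Krt19;Krt17;Krt42, would be missed. The summed FPKM of 9 lens genes was 8.59 to 1291 in the diabetic group and 116 to 373 in the normal group. That of 7 keratocyte and stromal genes was 843 to 992 in the diabetic group and 883 to 1132 in the normal group. Of 5 listed conjunctival and goblet cell genes 3 were found, with a summed FPKM of 497 to 1169 in the diabetic group and 788 to 1388 in the normal group. The part of lens, stromal, conjunctival or other RNA in the values below was not tested. In such bulk samples fewer cells of a type and less RNA per cell cannot be told apart.

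Long noncoding RNAs are transcripts that are processed like messenger RNA but carry no long reading frame. Many remain in the nucleus, where some act on chromatin or hold nuclear bodies together, and others host microRNAs or small nucleolar RNAs. Many start close to the promoter of a protein-coding gene and are transcribed away from it, which is called a divergent arrangement. Antisense transcripts overlap a gene on the opposite strand.

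Sequences are given for 2 sets of loci that can be tied to an annotated element. Among the 289 tested members, 10 held a small RNA row within their bounds and 5 held a microRNA row, of which 4 had a named microRNA. The mature sequences of these 4 are shown because their rows lie within the bounds of tested members. By the strands given in the files, Mir135b, Mir488 and Mir770 lie on the strand of the member. Mir365b lies on the opposite strand, and by these strands it would not be a product of the member that contains it. The sequences were taken from RefSeq (build GRCr8), are written 5′ to 3′, and have the seed (bases 2 to 8) in capitals.
miR-135b-5p: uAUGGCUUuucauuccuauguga
miR-135b-3p: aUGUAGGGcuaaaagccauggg
miR-488-5p: cCCAGAUAauggcacucucaa
miR-488-3p: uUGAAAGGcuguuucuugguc
miR-770-5p: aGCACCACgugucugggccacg
miR-770-3p: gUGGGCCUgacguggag
miR-365-5p: gAGGGACUuucaggggc
miR-365-3p: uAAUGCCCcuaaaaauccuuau
No seed was shared among the 8 arms.

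The second set comprises start regions. Tug1, a nuclear and cytoplasmic lncRNA first described in the retina, and Kantr were the tested members with a symbol of their own, other than LOC numbers, that RefSeq also types as lncRNA. Morc2, Enpp4 and Pan3 are the protein-coding partners of 3 divergent members described below, so that their start regions face those of the members. Each window runs from 250 bases before to 50 bases after the RefSeq start in build GRCr8, which is not the build of the expression files (rn6). Capitals mark matches on either strand to CCAAT, to GGGCGG (the GC box) or to TATAAA (the TATA box).
Tug1, chr14:82750485-82750784, minus strand: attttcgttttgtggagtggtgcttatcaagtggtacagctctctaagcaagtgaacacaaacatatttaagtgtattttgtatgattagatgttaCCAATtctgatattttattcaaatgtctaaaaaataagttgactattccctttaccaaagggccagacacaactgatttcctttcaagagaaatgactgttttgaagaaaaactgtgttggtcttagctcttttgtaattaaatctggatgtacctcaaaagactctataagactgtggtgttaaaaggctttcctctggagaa
Morc2, chr14:82752960-82753259, plus strand: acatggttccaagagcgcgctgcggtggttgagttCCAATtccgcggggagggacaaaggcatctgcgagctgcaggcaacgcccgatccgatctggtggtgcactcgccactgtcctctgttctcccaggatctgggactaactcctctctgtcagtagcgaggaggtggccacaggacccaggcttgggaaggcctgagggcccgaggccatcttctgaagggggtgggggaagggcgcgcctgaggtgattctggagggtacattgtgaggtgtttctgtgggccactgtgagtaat
Enpp4, chr9:24386321-24386620, plus strand: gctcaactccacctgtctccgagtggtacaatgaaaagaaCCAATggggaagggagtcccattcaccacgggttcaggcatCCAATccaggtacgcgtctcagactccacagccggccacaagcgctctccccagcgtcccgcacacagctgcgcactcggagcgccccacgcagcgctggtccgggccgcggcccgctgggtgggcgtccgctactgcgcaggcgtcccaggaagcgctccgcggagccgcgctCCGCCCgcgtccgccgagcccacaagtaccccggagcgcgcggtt
Pan3, chr12:12631443-12631742, minus strand: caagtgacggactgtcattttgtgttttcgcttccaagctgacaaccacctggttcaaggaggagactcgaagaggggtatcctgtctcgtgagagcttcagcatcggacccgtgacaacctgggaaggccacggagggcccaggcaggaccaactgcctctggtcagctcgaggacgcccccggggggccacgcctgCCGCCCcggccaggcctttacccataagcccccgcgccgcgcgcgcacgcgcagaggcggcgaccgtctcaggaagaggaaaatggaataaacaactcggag
Kantr, chrX:24909987-24910286, minus strand: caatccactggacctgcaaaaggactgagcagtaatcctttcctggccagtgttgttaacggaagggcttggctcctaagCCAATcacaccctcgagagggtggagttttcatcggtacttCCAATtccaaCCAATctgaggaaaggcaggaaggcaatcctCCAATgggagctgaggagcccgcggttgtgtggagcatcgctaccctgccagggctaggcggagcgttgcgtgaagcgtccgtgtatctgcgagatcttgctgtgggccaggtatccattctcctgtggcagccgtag
The Kantr window held 4 matches to CCAAT, the Enpp4 window 2, the Tug1 and Morc2 windows 1 each and the Pan3 window 0. GGGCGG had 1 match each in the windows of Enpp4 and Pan3, and TATAAA in none of the 5. Of all 33469 RefSeq windows of this length, 37.5% held CCAAT, 33.1% GGGCGG and 14.2% TATAAA. The windows of Morc2, Enpp4, Pan3 and Kantr held 13 to 35 CG dinucleotides, against a median of 7 over all windows. The Tug1 window held 1, but its RefSeq start lies 2676 bp from that of Morc2, whereas the deposited Tug1 locus starts 86 bp from Morc2 in rn6. The Tug1 window therefore may not be the start of the locus measured here.

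Long noncoding loci were sparse and mostly of low abundance. Of the annotated lincRNA loci 31.0% had at least 1 count, against 85.9% of the processed_transcript loci, 71.2% of the antisense loci and 77.6% of the protein_coding loci. The median of the mean FPKM was 0.111 over the 1065 members and 2.71 over the 16198 protein_coding loci with a count. Within the class the median was 0.0889 for lincRNA, 0.271 for sense_intronic, 0.666 for processed_transcript and 0.737 for antisense loci. In every library the median of the members lay below that of protein_coding loci, with differences of -4.77 to -4.53 on the log2 scale (FPKM + 0.01). The mean difference was -4.62 (SD 0.0862, n = 6 libraries, exact two-sided paired permutation test by sign changes, p = 0.03125, the smallest that 6 pairs allow). Of the members, 17 had a mean FPKM over 10, 185 one of 1 to 10 and 87 one of 0.5 to 1, and 164 averaged less than 1 count per library. Counts were found in all 6 libraries for 40.0% of the members and for 81.7% of the protein_coding loci.

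**Figure D1:**
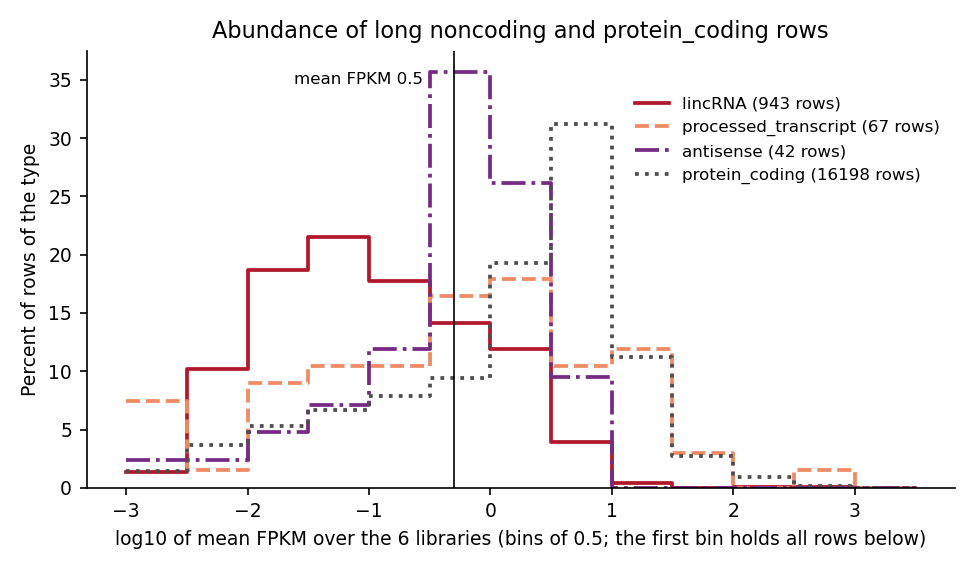
Percent of loci (y axis) by the log10 of the mean FPKM over the 6 libraries (x axis, bins of 0.5) for 943 lincRNA, 67 processed_transcript, 42 antisense and 16198 protein_coding loci with at least 1 count. The first bin also holds all loci below it. The vertical line marks the mean FPKM of 0.5 above which loci were tested. Most lincRNA loci lie left of it, and most protein_coding loci right of it.

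Diabetic libraries held counts for 694, 660 and 663 members, and normal libraries for 695, 698 and 658. The members took 1.28%, 1.46% and 1.55% of the counts of the diabetic libraries and 1.36%, 1.44% and 1.05% of those of the normal libraries. The groups overlap, and normal replicate 3 is the lowest. The share averaged 1.43% ± 0.140 in the diabetic group and 1.28% ± 0.206 in the normal group (SD, n = 3 each). The difference of 0.149 percentage points did not exceed the spread (exact two-sided permutation test, p = 0.40, where 3 against 3 libraries cannot give less than 0.10). Its sign rests on a single locus: without AC134224 the share averaged 0.695% ± 0.0319 in the diabetic group and 0.715% ± 0.0325 in the normal group (difference -0.0197 percentage points, exact permutation test, p = 0.50, n = 3 each).

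AC134224 (MSTRG.5592, lincRNA, rn6 chr1:221149359-221158792, minus strand) held 47.5% of all counts of the class. It had 528895, 482742 and 528927 counts in the diabetic libraries and 488465, 543161 and 300074 in the normal libraries. Its level was 566, 720 and 763 FPKM in the diabetic group and 574, 659 and 341 FPKM in the normal group. Both groups reached similar levels, and normal replicate 3 stood below the other 5 libraries. Its log2 fold change, diabetic over normal, was 0.46 (SE 0.24, limma, Benjamini-Hochberg adjusted p = 0.953). The nearest protein_coding locus was Ltbp3, which encodes a protein that binds latent TGF-beta, at 33263 bp. Reads from AC134224 could be shared with 3 assembled loci without a type that overlap it on the opposite strand at a mean of 2.30 to 30.2 FPKM, since no source used here tells whether the counting used strand.

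The labels of the class were checked against the gene descriptions in the files. Of the 289 tested members 51 were described with the name of a protein, comprising 26 of the 35 processed_transcript, 24 of the 224 lincRNA and 1 of the 27 antisense loci. These and their untested counterparts (100 of 1065 members) held 19.9% of the counts of the class. Only 3 of the 100 shared their symbol with a protein_coding locus of the files. Conversely, 928 of the 1065 members were named only by a sequence clone or contig, and 101 had a LOC number. Of the 289 tested members, 11 carried a symbol that RefSeq types as lncRNA. The processed_transcript loci therefore go in large part against the label of a long noncoding RNA, and they are named by their type below.

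The highest levels after AC134224 came mostly from such loci. Ivns1abp (MSTRG.13240, processed_transcript, chr13:68702820-68707767, plus strand) carries the symbol of an actin-binding kelch protein. It had 307, 272 and 316 FPKM in the diabetic libraries and 332, 335 and 384 FPKM in the normal libraries. All 3 diabetic libraries lay below all 3 normal ones, by a log2 fold change of -0.26 (SE 0.16, limma, adjusted p = 0.953). AABR07068316 (processed_transcript, chr9:97926716-98004612, minus strand), described as the collagen type VI alpha 3 chain, a matrix protein of the stroma, had 68.7, 65.9 and 72.6 FPKM in the diabetic group and 94.2, 99.1 and 63.3 FPKM in the normal group. Here normal replicate 3 fell among the diabetic libraries. Snx3 (processed_transcript), named for a sorting nexin of the endosome, had 58.1, 57.3 and 60.5 FPKM in the diabetic group and 53.3, 51.6 and 66.5 FPKM in the normal group, with overlap. AC098547 (processed_transcript), described as bromodomain-containing protein 2-like, had 18.2, 10.5 and 10 FPKM in the diabetic group and 16.5, 16.3 and 18.8 FPKM in the normal group. Diabetic replicate 1 lay among the normal libraries and the other 2 diabetic libraries below them (log2 fold change -0.43, SE 0.20, limma, adjusted p = 0.953). Without diabetic replicate 1 its adjusted p was 0.354, the lowest of any member under any of the 18 other fits.

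Both AABR07064873 loci among the 10 highest members are processed_transcript loci. MSTRG.38305 (chr6:98844926-99025187) had 24.6, 24.0 and 33.4 FPKM in the diabetic group and 29.2, 24.9 and 26.2 FPKM in the normal group. MSTRG.38302 (chr6:99033000-99033122) had 14.1, 11.5 and 15.0 FPKM in the diabetic group and 15.8, 18.8 and 19.8 FPKM in the normal group. The groups overlap at MSTRG.38305 and do not at MSTRG.38302, whose log2 fold change was -0.38 (SE 0.14, limma, adjusted p = 0.953).

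Among lincRNA loci, AABR07044370 (chr20:3630522-3636250, plus strand) came second to AC134224. It had 116, 98.7 and 82.1 FPKM in the diabetic group and 105, 139 and 103 FPKM in the normal group. The next coding locus was Mucl3, at 10638 bp on the same strand, which was at 0.0833 FPKM or less in every library. AABR07062157 (chr4:162989589-163008828, plus strand) had 32.5, 13 and 9.60 FPKM in the diabetic group and 19.2, 24.1 and 25.3 FPKM in the normal group. The diabetic libraries lay on both sides of the normal ones. It overlaps Clec2e, a C-type lectin, by 1584 bp on the opposite strand. Clec2e had 10.8, 11.6 and 7.45 FPKM in the diabetic group and 6.28, 8.55 and 10.2 FPKM in the normal group. AABR07019085 (chr15:87404841-87452948, minus strand) had 15.1, 20.9 and 20.4 FPKM in the diabetic group and 15.9, 16.4 and 14.9 FPKM in the normal group. Diabetic replicates 2 and 3 stood above the normal libraries and diabetic replicate 1 within them. Its nearest coding locus, 251346 bp away, was Scel, which encodes sciellin, a precursor of the cornified envelope. Scel had 16.9, 23.0 and 24.1 FPKM in the diabetic group and 17.3, 16.9 and 21.1 FPKM in the normal group.

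**Figure D2:**
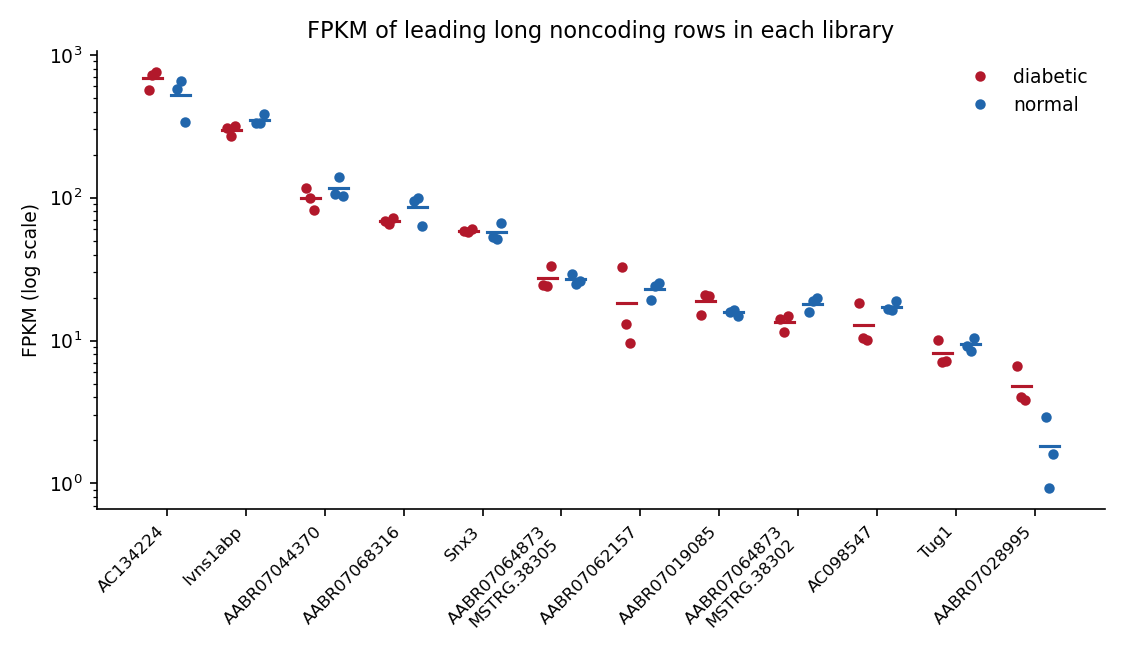
FPKM (y axis, log scale) of the 10 members of highest mean FPKM, of Tug1 and of AABR07028995, which had the smallest p of the class, in the 3 diabetic (left, red) and 3 normal (right, blue) libraries. Points are libraries and bars are group means. Only Ivns1abp, MSTRG.38302 and AABR07028995 have groups without overlap, and AC134224 is the highest in every library except normal replicate 3, where Ivns1abp is higher.

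Of 79 names of known lncRNAs that were looked for, 5 stood in the symbol column and only Tug1 stood on a tested member. Only exact symbols were matched, so a name not found does not show that the RNA was absent. In the list of 14 cytoplasmic and growth-linked lncRNAs 3 were found, and 2 reached the filter on loci that are not members. The summed FPKM of these 3 was 2465 to 3631 in the diabetic group and 1879 to 2868 in the normal group. Tug1 (MSTRG.15470, lincRNA, chr14:83877780-83888127, minus strand) had 9370, 4671 and 4984 counts in the diabetic libraries and 7785, 6911 and 9156 in the normal libraries. Its level was 10.1, 7.02 and 7.24 FPKM in the diabetic group and 9.22, 8.45 and 10.5 FPKM in the normal group. Diabetic replicate 1 lay among the normal libraries and the other 2 below them. The log2 fold change of -0.18 (SE 0.15, limma, adjusted p = 0.953) did not exceed the spread. Morc2, a chromatin regulator that starts 86 bp away on the opposite strand, had 4.4, 4.39 and 4.20 FPKM in the diabetic group and 4.51, 4.20 and 4.76 FPKM in the normal group.

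Kantr (chrX:22369521-22399901, minus strand), a lncRNA whose mouse counterpart neighbours Kdm5c, had 3.04, 2.78 and 3.76 FPKM in the diabetic group and 2.27, 3.64 and 3.65 FPKM in the normal group, with overlap. The other 9 tested members that RefSeq types as lncRNA carry LOC numbers. LOC102555924 (chr5:24220336-24238883, minus strand) was the only 1 of them with lower values in all diabetic libraries, at 2.39, 1.60 and 2.07 FPKM in the diabetic group and 3.07, 2.52 and 2.81 FPKM in the normal group. Its log2 fold change was -0.33 (SE 0.15, limma, adjusted p = 0.953). Plekhf2, an endosomal protein with PH and FYVE domains, lies 1359 bp away on the same strand. Plekhf2 had 15.7, 22.2 and 16.5 FPKM in the diabetic group and 29.0, 28.7 and 29.4 FPKM in the normal group (log2 fold change -0.65, SE 0.14, limma, adjusted p = 0.953). Both loci of this pair were lower in all 3 diabetic libraries, and neither passed the test. LOC103692984 (antisense to Grasp, a scaffold protein, with 549 bp of overlap) had 1.30, 1.35 and 1.33 FPKM in the diabetic group and 1.24, 1.02 and 0.989 FPKM in the normal group. All diabetic libraries were higher there (log2 fold change 0.18, SE 0.16, limma, adjusted p = 0.955).

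No member passed the test of diabetic against normal libraries, which does not show that the groups were alike. The threshold was a Benjamini-Hochberg adjusted p under 0.05 over all 42551 tested loci with a fold change over 1.2. limma on quantile-normalized log2(FPKM + 1) called 0 of 289 members, and 11 of all loci (0.0259%). edgeR's quasi-likelihood test on the counts called 0 members and 6 of all loci (0.0141%), and DESeq2 called 0 members and 99 of all loci (0.233%). An unadjusted p under 0.05 was reached by 9 members with limma (3.11%, against 4.80% of all loci), by 9 with edgeR (3.11%, against 4.14%) and by 12 with DESeq2 (4.15%, against 4.99%). The lowest adjusted p of a member was 0.953 with limma, 0.991 with edgeR and 0.395 with DESeq2. The 9 members with limma comprised 5 with higher and 4 with lower values in the diabetic group.

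Fold changes of the members were centred near 0. Of the 289 members 137 had a positive log2 fold change (47.4%, against 49.0% of all tested loci). Their median was -0.01, and that of all tested loci -0.0049. For 208 members the fold change was under 1.2 in either direction, and for 3 it was over 2. The values ran from -0.88 to 1.10. On the log2(FPKM + 1) scale these values are compressed for low loci. Fitted to the counts, fewer members were under 1.2-fold (159 with edgeR and 157 with DESeq2) and 15 were over 2-fold with either tool. The range was -6.91 to 2.58 with edgeR and -6.90 to 2.59 with DESeq2, and the lowest value was that of LOC102550026, which is described below. By type the median was -0.014 for 224 lincRNA, 0.012 for 35 processed_transcript, 0.027 for 27 antisense and -0.035 for 3 sense_intronic loci. The median standard error of a member's log2 fold change was 0.22, against 0.15 for protein_coding loci.

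The FPKM of the 2 groups did not overlap for 10 members that were higher (3.46%) and 16 that were lower in the diabetic group (5.54%). Over all tested loci these shares were 3.94% higher and 5.72% lower, or 9.66% in either direction against 9.0% of the members. The members' share was thus near that of all loci. The 10 higher loci comprised 7 lincRNA and 3 antisense loci, and the 16 lower loci 13 lincRNA and 3 processed_transcript loci.

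**Figure D3:**
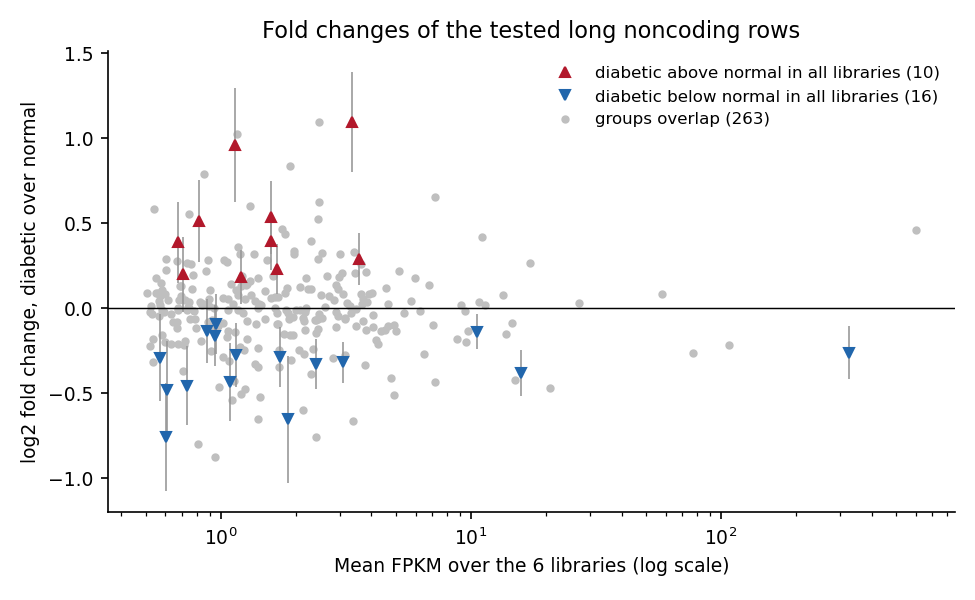
log2 fold change, diabetic over normal (y axis), against the mean FPKM over the 6 libraries (x axis, log scale) of the 289 tested members. Triangles are members whose FPKM did not overlap between the groups (10 higher and 16 lower in the diabetic group), with standard errors as bars, and dots are the other 263. No point passed the test, and the spread narrows with the level.

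The locus with the smallest p of the class was AABR07028995 (MSTRG.6937, lincRNA, chr10:1701449-1702704, minus strand). It had 292, 125 and 125 counts in the diabetic libraries and 117, 36 and 66 in the normal libraries. In FPKM these were 6.68, 3.99 and 3.84 in the diabetic group and 2.94, 0.925 and 1.60 in the normal group. Every diabetic library was higher than every normal one. The log2 fold change was 1.10 (SE 0.29, limma, adjusted p = 0.953), and with edgeR it was 1.43 (adjusted p = 0.991). The nearest protein_coding locus, AABR07028989, lies 26748 bp away and had 2.06, 6.54 and 5.61 FPKM in the diabetic group and 2.86, 1.24 and 1.87 FPKM in the normal group. Its log2 fold change was 0.90 (SE 0.36, limma, adjusted p = 0.953), with overlap of the groups.

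Of the 10 loci of smallest p without overlap, 5 were higher in the diabetic group, and the other 4 of these follow. AABR07024833 (chr16:18597463-18602336) had 77, 80 and 56 counts in the diabetic libraries and 11, 58 and 0 in the normal libraries. In counts the groups overlap, whereas in FPKM the values were 1.54, 2.23 and 1.5 in the diabetic group and 0.230, 1.32 and 0 in the normal group (log2 fold change 0.96, SE 0.34, limma, adjusted p = 0.953). AABR07039153 (chrX:70222056-70222693) had 2.09, 1.69 and 2.32 FPKM in the diabetic group and 1.54, 1.31 and 0.571 FPKM in the normal group. AABR07034274 (chr11:61492737-61493526) had 2.24, 1.57 and 1.94 FPKM in the diabetic group and 1.43, 0.935 and 1.37 FPKM in the normal group. It lies wholly within Usf3, a transcription factor gene of the same strand, so that its reads cannot be told apart from those of Usf3, which had 6.17, 3.21 and 6.90 FPKM in the diabetic group and 6.05, 6.12 and 6.48 FPKM in the normal group. AC117919 (antisense, chr2:187914814-187915214) had 0.898, 1.38 and 1.06 FPKM in the diabetic group and 0.357, 0.400 and 0.810 FPKM in the normal group. Rab25, an epithelial GTPase of the recycling endosome, lies 5420 bp from it and had 156, 139 and 137 FPKM in the diabetic group and 150, 140 and 138 FPKM in the normal group, with overlap.

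The remaining 5 were lower, of which MSTRG.38302 and LOC102555924 are given above. AC120486 (chr20:2488942-2489579) had 2.73, 2.73 and 2.39 FPKM in the diabetic group and 3.28, 3.64 and 3.71 FPKM in the normal group (log2 fold change -0.32, SE 0.12, limma, adjusted p = 0.953). AABR07058955 (chr7:145375147-145379002) had 0, 0 and 64 counts in the diabetic libraries and 92, 150 and 153 in the normal libraries. Its log2 fold change was -0.76 on the log2(FPKM + 1) scale, where low loci appear to change less than they do (SE 0.32, limma, adjusted p = 0.953). AABR07066861 (chr9:19446638-19448202, minus strand) had 0.405, 0.580 and 0.346 FPKM in the diabetic group and 1.18, 0.874 and 1.00 FPKM in the normal group, which was a log2 fold change of -0.46 (SE 0.23, limma, adjusted p = 0.953). It led the class in edgeR, at -1.16 (edgeR, adjusted p = 0.991). It starts 67 bp from Enpp4, an ectonucleotide phosphodiesterase, in divergent orientation. Enpp4 had 2.20, 3.04 and 2.87 FPKM in the diabetic group and 2.88, 2.82 and 2.20 FPKM in the normal group. The noncoding locus was thus lower in all diabetic libraries and its partner was not.

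At the edge of the filter, AABR07071747 (0.506 FPKM) and AABR07006566 (0.520 FPKM) were just inside, and AC130741 (0.50 FPKM) and AC116220;Zdhhc1 (0.497 FPKM) just outside. The last of these, an antisense locus on chr19:37370498-37438488, had 0.498, 0.420 and 0.252 FPKM in the diabetic group and 0.591, 0.624 and 0.599 FPKM in the normal group. It overlaps Tppp3, a tubulin-binding protein, by 3666 bp on the opposite strand. Tppp3 had 11.9, 8.24 and 5.74 FPKM in the diabetic group and 15.6, 13 and 12.7 FPKM in the normal group (log2 fold change -0.65, SE 0.22, limma, adjusted p = 0.953). Both were lower in all 3 diabetic libraries, and reads of the overlapping stretch cannot be assigned to a strand here.

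Some lincRNA loci were present in some libraries and without a single count in others. Of the 224 tested lincRNA loci 24 (10.7%) had 0 counts in at least 1 library and at least 50 in another, against 0.735% of the tested protein_coding loci and 0 of the 65 tested members of the other types. The share was also higher at similar levels. It was 15.9% of lincRNA and 2.75% of protein_coding loci at 0.5 to 1 FPKM, 12.7% of lincRNA and 1.12% of protein_coding loci at 1 to 2 FPKM, and 5.13% of lincRNA and 0.556% of protein_coding loci at 2 to 10 FPKM. These shares describe the loci and were not tested, since loci are not replicates.

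**Figure D4:**
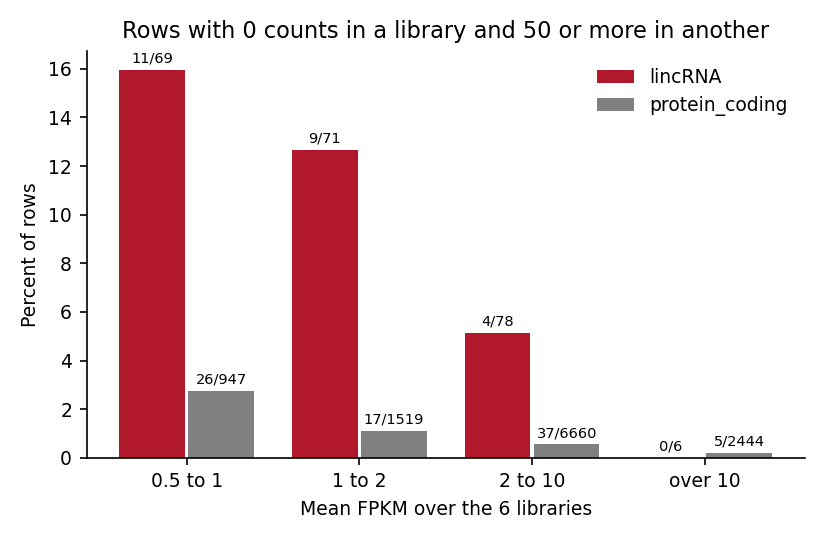
Percent of tested lincRNA (left bars) and protein_coding loci (right bars) with 0 counts in at least 1 library and at least 50 counts in another (y axis, from 0), by mean FPKM over the 6 libraries (x axis). Numbers above the bars give such loci over all loci of the bin. The lincRNA bar is higher in the 3 bins below 10 FPKM, with 24 loci in all, and is 0 of 6 above.

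Empty libraries occurred in both groups, and their number was not tested between them. Over the 24 loci there were 22 empty diabetic and 17 empty normal libraries. Of the 24 loci 11 had their empty libraries only in the diabetic group, 5 only in the normal group and 8 in both. LOC102550026 had 0, 0 and 9 counts in the diabetic libraries and 0, 0 and 1368 in the normal libraries. AABR07065448 (chr6:128996616-129001614) had 865, 0 and 575 counts in the diabetic libraries and 1094, 0 and 1070 in the normal libraries. AABR07043772 (chr19:39502153-39537050) had 0, 479 and 474 counts in the diabetic libraries and 0, 583 and 394 in the normal libraries. Each of these 3 loci was thus empty in libraries of both groups. LOC688442 had 512, 616 and 0 counts in the diabetic libraries and 718, 502 and 1021 in the normal libraries. AC141521 (chr20:5779066-5786537) had 1051, 630 and 749 counts in the diabetic libraries and 0, 814 and 323 in the normal libraries. In FPKM it had 3.71, 3.09 and 3.55 in the diabetic group and 0, 3.25 and 1.21 in the normal group, with overlap. Normal replicates 1 and 3 lay below all diabetic libraries (log2 fold change 1.10, SE 0.46, limma, adjusted p = 0.953). A count of 0 allows up to 0.0345 to 0.0482 CPM in the diabetic and 0.0370 to 0.0392 in the normal libraries, for counting error only.

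No member had 0 counts in all libraries of a group and at least 50 in each library of the other. At a limit of 10 counts there were 3, all lincRNA loci under the filter. LOC108349637 had 14, 20 and 11 counts and AABR07068638 had 23, 39 and 13 counts in the diabetic libraries, against 0 in each normal library. AABR07006888 had 0 counts in each diabetic library, against 138, 85 and 10 in the normal libraries. The limit of 10 was set after the values had been seen. The share over all loci at this limit is not given here, so this count is not read as a result about the members.

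The position of the members relative to protein_coding loci was described without a test. Of the 289 tested members 35 overlapped a protein_coding locus (12.1%), 115 lay within 10 kb of 1 (39.8%, overlaps included) and 231 within 100 kb, and the median distance to the nearest was 20016 bp. Over all 1065 members 7.61% overlapped and 37.4% lay within 10 kb. By strand, 126 tested members lay on the strand of their nearest coding locus, 69 were divergent, 59 convergent, 26 overlapped it on the opposite strand and 9 on the same strand.

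In 13 tested pairs the member and the coding locus started within 1 kb of each other in divergent orientation. The partners were Pan3 (17 bp between the starts), Nob1 (65 bp), Enpp4 (67 bp), Ncoa3 (74 bp), Morc2 (86 bp), Camsap1 (113 bp), Eif1b (175 bp), Usp3 (220 bp), Fbxw4 (295 bp), Baiap2 (398 bp), Upf2 (437 bp), Man1a2 (806 bp) and Setd1b (873 bp). Among them are genes of messenger RNA decay (Pan3, Upf2), ribosome assembly (Nob1), translation (Eif1b), chromatin (Morc2, Setd1b, Ncoa3) and deubiquitination (Usp3). Enpp4, Camsap1, Fbxw4, Baiap2 and Man1a2 belong to none of these groups, and the make-up of the partners was not tested. In 12 of the 13 pairs the member was the lower of the pair, with a median of 1.27 FPKM against 5.34 FPKM for the partners. Tug1 was the exception. RefSeq windows were found for 12 partners, and 10 of them held GGGCGG (83.3%, against 33.1% of all windows), 3 held CCAAT (25%, against 37.5%) and 1 held TATAAA (8.33%, against 14.2%). They held a median of 31 CG dinucleotides, against 7 over all windows. No set of other coding loci at a similar level was compared, so these values are not shown to be particular to divergent partners.

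None of these divergent members passed the test. AABR07035273, which faces Pan3, a subunit of the deadenylase complex, had 1.74, 2.52 and 2.17 FPKM in the diabetic group and 1.88, 4.25 and 1.81 FPKM in the normal group. Normal replicate 2 stood above the other 5 libraries, and the log2 fold change of -0.15 (SE 0.26, limma, adjusted p = 0.978) was 0.15 without it. Pan3 had 5.69, 7.22 and 8.01 FPKM in the diabetic group and 6.45, 6.63 and 6.77 FPKM in the normal group. AABR07043748, which faces Nob1, had 2.26, 2.74 and 2.81 FPKM in the diabetic group and 2.71, 2.84 and 2.33 FPKM in the normal group. AABR07036331, which faces the histone methyltransferase gene Setd1b, had 4.01, 2.81 and 2.75 FPKM in the diabetic group and 5.17, 4.33 and 3.50 FPKM in the normal group. Its log2 fold change was -0.33 (SE 0.18, limma, adjusted p = 0.953), beside -0.0077 for Setd1b. AABR07030914, which faces Baiap2, had 2.86, 2.98 and 3.40 FPKM in the diabetic group and 2.97, 2.82 and 2.63 FPKM in the normal group. The groups overlapped in each of these 4 members. Over the 13 pairs the log2 fold changes of member and partner had the same sign in 6 (46.2%).

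Over all 197 pairs in which the nearest coding locus was also tested, the signs agreed in 125 (63.5%). The correlation of the fold changes across these pairs was weak (Pearson r = 0.19, Spearman rho = 0.17). Both loci of a pair were measured in the same 6 libraries, and the pairs share 179 coding loci. In pairs on the same strand r was 0.27 (79 pairs), in divergent pairs 0.07 (52 pairs), in convergent pairs 0.21 (36 pairs), in pairs that overlap on opposite strands 0.35 (22 pairs) and in pairs that overlap on the same strand -0.10 (8 pairs). In the 13 divergent pairs with starts within 1 kb it was -0.05. The mean FPKM of member and neighbour had a rank correlation near 0 (Spearman rho = -0.07, 197 pairs), and the member was the higher of the pair in 51 of 197. Of the 179 coding neighbours 0 passed the limma test and 6 had an unadjusted p under 0.05 (3.35%, against 4.80% of all loci).

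**Figure D5:**
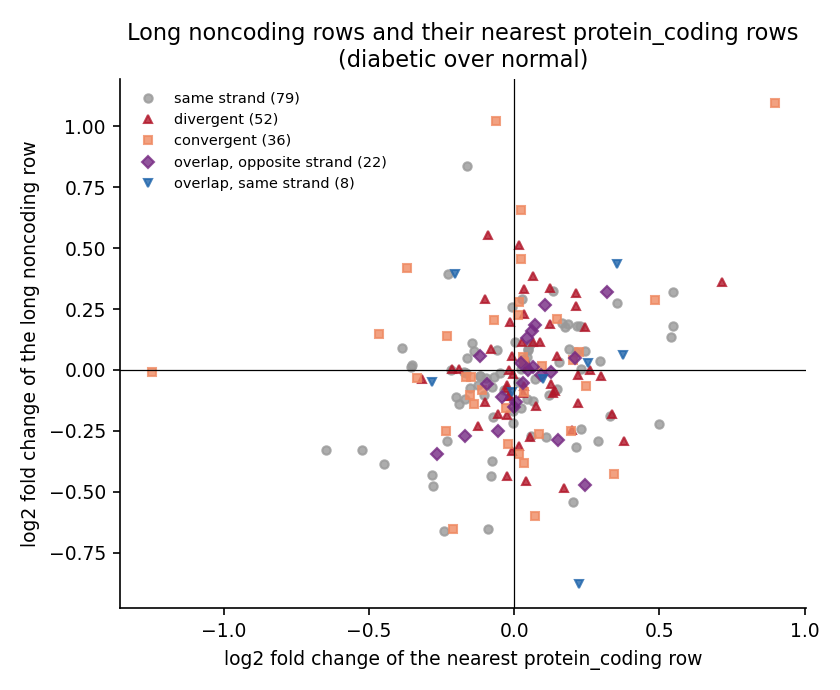
log2 fold change, diabetic over normal, of 197 tested long noncoding loci (y axis) against that of their nearest protein_coding locus (x axis), with symbols for the arrangement and the number of pairs in brackets. The points spread over all 4 quadrants, with the same sign in 125 pairs.

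Of the 27 tested antisense members 9 overlapped a protein_coding locus on the opposite strand as the nearest. AC096317, opposite Pyroxd2, a mitochondrial oxidoreductase, over 25456 bp, had 2.71, 3.09 and 4.08 FPKM in the diabetic group and 3.13, 3.30 and 3.39 FPKM in the normal group. AABR07031518, opposite the formin gene Fhod3 over 19796 bp, had 2.77, 2.34 and 3.59 FPKM in the diabetic group and 2.60, 2.59 and 3.14 FPKM in the normal group. AABR07037436, which lies wholly opposite AABR07037451 on the X chromosome, had 2.43, 1.82 and 1.84 FPKM in the diabetic group and 2.59, 1.99 and 2.40 FPKM in the normal group. AABR07059168, opposite the glycosyltransferase gene Galnt11 over 855 bp, had 2.10, 1.69 and 2.32 FPKM in the diabetic group and 1.75, 1.96 and 2.90 FPKM in the normal group. AC128962, opposite Tapbp;Zbtb22 over 581 bp, had 2.32, 2.74 and 1.79 FPKM in the diabetic group and 1.51, 1.88 and 1.52 FPKM in the normal group. The groups overlapped in all 5, and their log2 fold changes lay between -0.13 and 0.32 (limma, adjusted p = 0.953 to 0.997). Tapbp encodes tapasin, which loads peptides on class I molecules, and the joined locus had 3.34, 7.57 and 3.13 FPKM in the diabetic group and 3.54, 3.95 and 2.60 FPKM in the normal group. Reads of such a pair cannot be told apart without the strand.

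The groups overlapped in the members that contain the microRNAs printed above. AABR07065531 (lincRNA, chr6:133667275-133691138, plus strand) contains the Mir770 row on its own strand and had 3.12, 4.14 and 4.81 FPKM in the diabetic group and 3.67, 3.68 and 2.42 FPKM in the normal group (log2 fold change 0.26, SE 0.19, limma, adjusted p = 0.953). In the GRCr8 annotation Mir770 lies within Meg3, an imprinted lncRNA, but the files give this locus no such name. Lemd1;AABR07020966 (lincRNA, chr13:48975171-48988064, plus strand) contains Mir135b on its own strand, 1815 bp from its start. It had 1136, 569 and 92 counts in the diabetic libraries and 337, 774 and 138 in the normal libraries, a wide spread within both groups. Astn1 (processed_transcript, chr13:76195323-76370674, plus strand) contains Mir488, 3270 bp from its start, and had 1.35, 1.83 and 3.87 FPKM in the diabetic group and 1.62, 1.75 and 1.35 FPKM in the normal group. Diabetic replicate 3 stood above the other 5 libraries. Mir365b;AABR07030091 (lincRNA, chr10:67077431-67131743, minus strand) contains Mir365b on the opposite strand and had 3.36, 4.83 and 2.99 FPKM in the diabetic group and 4.08, 3.21 and 2.19 FPKM in the normal group, with overlap.

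Proteins that bind or degrade nuclear long noncoding RNA were taken from 2 lists. Of 15 tested paraspeckle and lncRNA-binding proteins 0 passed the limma test (0.0259% of all loci did), 5 had a positive log2 fold change and the median was -0.083, against -0.0049 over all tested loci. Srsf2, a splicing factor of nuclear speckles, had 52.6, 43.3 and 40.8 FPKM in the diabetic group and 68.0, 65.6 and 45.9 FPKM in the normal group (log2 fold change -0.36, SE 0.15, limma, adjusted p = 0.953). Matr3, a protein of the nuclear matrix, had 13.3, 11.6 and 13.4 FPKM in the diabetic group and 14.8, 14.9 and 15.9 FPKM in the normal group. It was lower in all 3 diabetic libraries (log2 fold change -0.21, SE 0.10, limma, adjusted p = 0.953). Sfpq, a core paraspeckle protein, had 18.1, 14.0 and 13.3 FPKM in the diabetic group and 17.2, 17.2 and 17.6 FPKM in the normal group, with overlap. Of 10 tested nuclear RNA turnover proteins 0 passed, 3 had a positive log2 fold change and the median was -0.059. Mtrex, the helicase of the nuclear exosome, had 7.69, 7.49 and 7.28 FPKM in the diabetic group and 7.20, 7.10 and 6.78 FPKM in the normal group, without overlap (log2 fold change 0.099, SE 0.094, limma, adjusted p = 0.956). Pabpn1, the nuclear poly(A)-binding protein, had 20.9, 18.3 and 17.3 FPKM in the diabetic group and 22.2, 23.3 and 18.6 FPKM in the normal group, with overlap. Drosha, the nuclease of microRNA processing, was represented among the 10 only by a locus of 330 bp without a type or strand. This locus had 2.46, 2.86 and 5.54 FPKM in the diabetic group and 3.42, 4.68 and 5.6 FPKM in the normal group. Its values may not stand for the whole gene.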

How the data were processed

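Corneal epithelial RNA of 3 diabetic and 3 normal libraries was measured by RNA sequencing. The selection of RNA for the libraries (poly(A) or rRNA removal) was not found in the sources used here. Per the submitters' processing notes, the authors used cutadapt, FastQC and Bowtie2 with the rat build rn6. No source used here gives their versions, the assembler, the counter or the use of strand. The deposited counts per locus are raw, and the deposited FPKM are the authors' values per locus length and depth. An FPKM of 0.0001, the placeholder for no reads (86380 values), was set to 0.

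Groups came from the sample labels, and 0 sample columns were left out. The 42551 loci whose mean FPKM reached 0.5 were tested with limma 3.58.1 (R 4.3.3) on quantile-normalized log2(FPKM + 1), with a mean trend, and called where the p adjusted by Benjamini-Hochberg was under 0.05 with a change of over 1.2-fold. Fold changes on this scale understate the change of low loci. edgeR 4.0.16 (quasi-likelihood) and DESeq2 1.42.0 were run on the deposited counts as alternatives. Scripts were tested on simulated data. Distances are gaps between locus bounds in rn6, and sequences came from RefSeq (GRCr8), in which 63 member symbols were matched.

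Named loci were the 10 of highest mean FPKM, the 10 of smallest p without overlap of the groups, the listed lncRNAs, the 5 antisense loci of highest FPKM opposite a protein_coding locus, the 2 just above and 2 just below the filter, their nearest protein_coding loci and the 3 of smallest p in each protein list. The 13 divergent pairs, the loci that RefSeq types as lncRNA, the microRNA hosts and the loci with empty libraries were chosen after values had been seen. The members and lists were chosen with earlier results of these data known.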

Additional observations from a re-analysis of the deposited data

How the results depend on the processing

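No long noncoding locus was called under any of the 18 other fits, and the lowest adjusted p of a member among them was 0.354 (AC098547, limma without diabetic replicate 1). The calls over all loci were 11 with limma and varied more, at 6 with edgeR, 99 with DESeq2, 6 with edgeR and DESeq2 size factors, 6 at a pseudocount of 0.1, 4 without the filter, 3 over annotated loci only, and 3 to 10 with 1 library left out. The median log2 fold change of the members was -0.030 without quantile normalization and -0.038 to 0.00096 with 1 library left out. Members without overlap were 32 higher and 36 lower in the diabetic group without the filter. The number lower was 9 at a mean FPKM of at least 1. With 1 library left out 18 to 34 were higher and 26 to 46 lower, where fewer libraries have to separate. The shares over all loci under these settings are not given here, so these counts are not read as a result about the members. The share of counts reversed to -0.0197 percentage points without AC134224 and was 0.0327 to 0.228 percentage points with 1 library left out. The difference in median level was -4.64 to -4.59 with 1 library left out, where 5 libraries cannot give a p under 0.0625 (exact permutation test by sign changes). Within 100 kb 231 tested members had a coding locus, and 54 had a start site within 10 kb of the coding start.

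Of 37 named members 10 changed sign under some setting, mostly with 1 library left out. Without quantile normalization AC096317 was at -0.0050, AABR07043748 at -0.0084 and AC141220 at -0.00037 (log2 fold changes). With 1 library left out the ranges were -0.15 to 0.13 for AABR07064873 (MSTRG.38305), -0.10 to 0.11 for AC096317, -0.062 to 0.14 for AABR07031518, -0.15 to 0.081 for AABR07059168, -0.090 to 0.25 for AABR07071747, -0.31 to 0.15 for AABR07035273, -0.066 to 0.069 for AABR07043748, -0.062 to 0.055 for LOC100909912, -0.26 to 0.099 for LOC102549941 and -0.21 to 0.14 for AC141220. The cause was not tested.

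Libraries of the same replicate number did not deviate together over all loci (r = -0.0092, 0.025 and 0.032 across 42551 loci). Libraries of unlike number had r of -0.072 to 0.053. A correlation over all loci cannot exclude a pairing that touches only some of them. With the replicate block 0 members and 1 of all loci were called, and the median log2 fold change of the members stayed at -0.01.

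Leaving out the loci described with a protein's name, and counting any type that includes protein_coding as a neighbour, were alternatives chosen after seeing the data. Without such loci 0 members were called, and 10 were higher and 14 lower without overlap. These counts are given without a share over all loci and are not read as a result about the members. The share of counts differed by 0.177 percentage points (exact permutation test, p = 0.30). With the wider neighbour type 152 tested members had a neighbour within 10 kb. At 1 count per library or less, as for 164 members, no difference could be measured.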
